A study of Mus musculus with 21 samples.

Results

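A module of 40 genes that act in G2 phase and mitosis was followed across sorted stem cells and progenitors of mouse blood. The genes were picked by name as textbook components of mitosis: Cdk1 with its cyclins and binding subunits, mitotic kinases and checkpoint proteins, chromosome structure and passenger proteins, kinetochore proteins, spindle motors and microtubule binders, cytokinesis factors, and proteins of mitotic protein degradation. All 40 were found by symbol among the 28987 gene identifiers of the expression table, and all 40 passed the filter on low values in every comparison.

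These genes are transcribed mainly late in the cell cycle. Cdk1 bound to cyclin A or cyclin B drives entry into mitosis, kinetochores and the spindle segregate the chromosomes, and the anaphase-promoting complex with Cdc20 then marks cyclin B for destruction. In quiescent cells many of their promoters are held silent by the DREAM complex, which is recruited through the CHR element, and in cycling cells the same promoters are activated by B-Myb and FoxM1. Long-term haematopoietic stem cells (LT-HSC) are known to be mostly quiescent, whereas multipotent progenitors (MPP), their early offspring, divide more often. In bulk RNA, fewer dividing cells and less of each RNA per cell cannot be told apart.

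RNA was measured in 21 libraries, 15 of LT-HSC and 6 of MPP (the subsets MPP3 and MPP4), each from 5 ng of total RNA of cells sorted from the lineage-negative marrow of pooled animals. In batch 1 the knockouts carried the blood-cell Cre driver Vav1-Cre (written VaviCre in those labels) with floxed Rxra and Rxrb (Rxrab fl/fl), and their floxed controls carried Rxrab fl/fl with no Cre; MPP and LT-HSC of both genotypes gave 3 libraries each. Batch 2 held LT-HSC only, all with Vav1-Cre: Rxrab fl/fl with 1 floxed copy of a Myc-family gene (Mycl fl/+ in the titles, Myc in the descriptions, called the Myc allele here), Rxrab fl/fl, and Cre controls with wild-type alleles, again 3 libraries each. Vav1-Cre acts in blood cells in general and is not specific to LT-HSC. Age was not given, and whether the libraries of a group came from separate pools is not stated, so p-values measure the spread between these samples. The retinoid X receptors (RXR), encoded in part by Rxra and Rxrb, are partners of many other nuclear receptors, such as those for retinoic acid and oxysterols.

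Levels are TPM, which correct for transcript length and keep no read depth. A single identifier with no symbol, ENSMUSG00000089855, stood at 10.6% to 51.8% of the nominal total of TPM. The deposited TPM of a library summed to less than that total (691094 to 918942), so the identifier's share of the deposited sum was higher. Each library was therefore divided by a median-of-ratios size factor (0.661 to 1.458). All levels below are rescaled TPM unless the deposited TPM are named. The markers of both cell types stood as labelled: all 10 LT-HSC markers were lower and all 7 MPP markers were higher in floxed MPP than in floxed LT-HSC (adjusted p under 0.05, limma). Rxrb was at 6.76 to 9.17 rescaled TPM in batch 1 knockout LT-HSC and at 11.4 to 15.1 in floxed LT-HSC (log2 -0.71, adjusted p = 0.029, limma), and Rxra was at 2.10 to 2.78 in knockout LT-HSC and at 2.52 to 5.86 in floxed LT-HSC (log2 -0.65, adjusted p = 0.087). In MPP Rxrb was at 9.48 to 11.7 in knockouts and 14.99 to 18.1 in floxed controls (log2 -0.68, adjusted p = 0.077). In batch 2 Rxrb was at 10.2 to 14.6 in the libraries labelled knockout and at 13.1 to 14.95 in Cre controls (log2 -0.14, adjusted p = 0.95), so the transcript level did not separate those groups and the label is used as a label. Myc was at 69.7 to 117 with the Myc allele, at 131 to 146 in the libraries labelled knockout (log2 -0.61, adjusted p = 0.83, limma) and at 127 to 133 in Cre controls. These TPM cover whole transcripts and do not measure the floxed exons alone.

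The promoters of the module carry the letters that mark late cell cycle genes more often than promoters in general. In the RefSeq promoter table for GRCm38.p6, 35 of the 40 genes had an entry, with 37 promoters in all, each running from 250 bases before to 50 after the transcription start. The letters of the CHR element (TTTGAA or TTCGAA, either strand) were in 28 of 37 (75.7%), against 19.2% of all 32851 promoters of the table. Within 50 bases of the start they were in 25 of 37 (67.6%), against 5.31%. The CCAAT box, the motif of NF-Y, was in 29 of 37 (78.4%), against 37.4% of all promoters, and at least 2 CCAAT boxes were in 21 of 37 (56.8%), against 11.7%. A CHR element together with a CCAAT box was in 24 of 37 (64.9%), against 7.52%. The E2F-like letters TTCCCGC or TTGGCGC were in 5 of 37 (13.5%), against 6.81%, and on the reverse strand TTGGCGC can share bases with a CCAAT box. These shares are descriptions with no test, and a match is not a bound site.

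The promoters of 5 members are shown because the results below turn on the first 4, while the last holds none of the letters in this window. Capitals mark CHR, CCAAT and E2F-like letters on either strand (so ATTGG is a CCAAT box and TTCAAA a CHR element read from the other strand). On GRCm38.p6 they lie at chr10:69352863-69353162 (minus strand), chr9:70421505-70421804 (minus strand), chr6:124829926-124830225 (plus strand), chr9:61946750-61947049 (minus strand) and chr11:117848987-117849286 (plus strand), and each is printed 5′ to 3′ on the strand of its gene.
Cdk1: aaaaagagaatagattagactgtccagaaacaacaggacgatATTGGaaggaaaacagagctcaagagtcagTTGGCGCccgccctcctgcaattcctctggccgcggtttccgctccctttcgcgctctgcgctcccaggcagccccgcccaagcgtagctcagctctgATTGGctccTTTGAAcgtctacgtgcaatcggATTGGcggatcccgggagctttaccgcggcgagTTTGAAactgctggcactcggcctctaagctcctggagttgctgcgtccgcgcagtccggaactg
Ccnb2: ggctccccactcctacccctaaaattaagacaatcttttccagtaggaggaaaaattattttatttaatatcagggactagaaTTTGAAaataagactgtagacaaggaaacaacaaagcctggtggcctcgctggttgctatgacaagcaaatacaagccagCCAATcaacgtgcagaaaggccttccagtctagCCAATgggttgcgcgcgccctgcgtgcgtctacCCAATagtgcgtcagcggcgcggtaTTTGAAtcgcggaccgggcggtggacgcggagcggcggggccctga
Cdca3: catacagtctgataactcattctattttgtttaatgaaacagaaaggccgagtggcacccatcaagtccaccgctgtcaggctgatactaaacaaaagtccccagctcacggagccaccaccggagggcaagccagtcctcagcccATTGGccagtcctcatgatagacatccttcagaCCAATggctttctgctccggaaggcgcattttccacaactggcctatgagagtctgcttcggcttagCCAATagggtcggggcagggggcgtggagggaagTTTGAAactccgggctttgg
Kif23: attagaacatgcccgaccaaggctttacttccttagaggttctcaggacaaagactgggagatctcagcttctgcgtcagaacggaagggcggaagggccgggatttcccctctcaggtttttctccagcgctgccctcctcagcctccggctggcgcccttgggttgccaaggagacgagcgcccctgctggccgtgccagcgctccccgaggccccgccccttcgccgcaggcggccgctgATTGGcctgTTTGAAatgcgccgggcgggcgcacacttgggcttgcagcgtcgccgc
Birc5: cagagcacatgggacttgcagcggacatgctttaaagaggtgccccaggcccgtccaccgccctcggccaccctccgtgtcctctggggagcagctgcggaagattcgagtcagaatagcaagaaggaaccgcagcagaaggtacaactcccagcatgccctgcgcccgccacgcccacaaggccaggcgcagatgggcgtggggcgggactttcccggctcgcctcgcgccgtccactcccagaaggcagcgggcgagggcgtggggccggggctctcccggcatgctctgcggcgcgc
Cdk1 has 2 CHR elements, 3 CCAAT boxes and 1 E2F-like match, Ccnb2 has 2 CHR elements and 3 CCAAT boxes, and Cdca3 has 1 CHR element and 3 CCAAT boxes. Kif23 has 1 CHR element right after 1 CCAAT box. In Birc5, which encodes survivin, no match says only that these letters are not in this window.

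**Figure D1:**
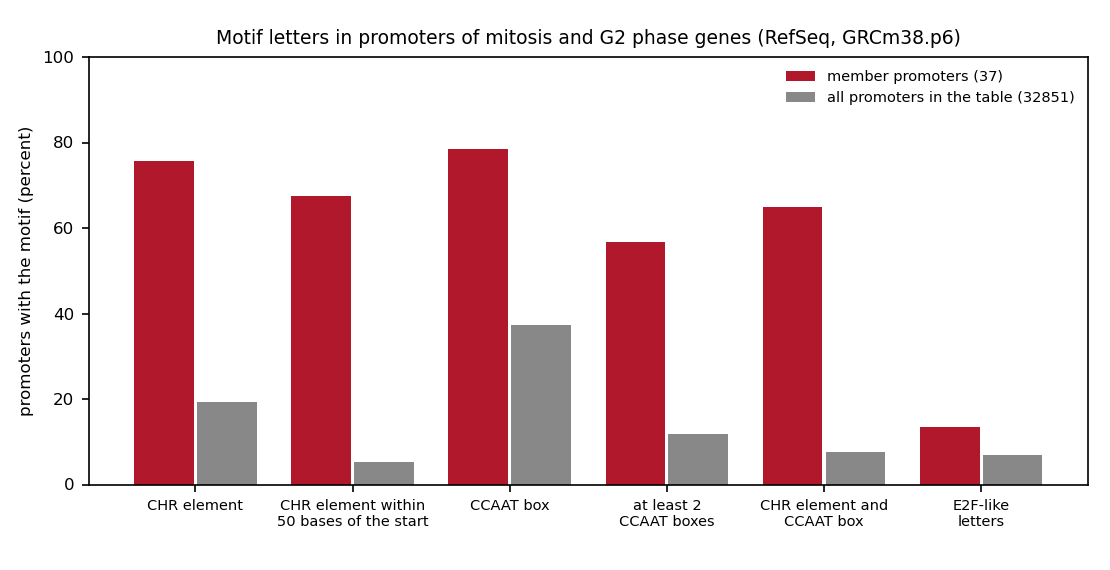
Share of promoters (percent) that hold each motif, for the 37 promoters of the module and for all 32851 promoters of the RefSeq table (GRCm38.p6). The CHR element is in 75.7% of the module's promoters, against 19.2% of all promoters.

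The module was expressed in every library, and its level differed between cell types, between batches and between single libraries of a group. By mean over the 21 libraries the highest genes were Ube2c at 119, Top2a at 116 and Mki67 at 113 rescaled TPM, and the lowest were Ttk at 7.91 and Gtse1 at 4.32. The summed rescaled TPM of the 40 genes was 1737, 1287 and 1525 in knockout MPP and 1548, 1637 and 1675 in floxed MPP. In batch 1 LT-HSC the sum was 865, 974 and 715 in knockouts and 982, 940 and 1567 in floxed controls. All 3 knockout LT-HSC libraries thus lay below every MPP library, while the third floxed library lay within the MPP range. In batch 2 LT-HSC the sum was 1463, 1159 and 890 with the Myc allele, 1546, 1306 and 1280 in the libraries labelled knockout and 1506, 1406 and 1718 in Cre controls. Cre control LT-HSC of batch 2 were therefore near the MPP of batch 1, and the first and second floxed LT-HSC libraries of batch 1 were well below them. Batch and control genotype change together between these groups and cannot be told apart.

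In several groups 1 library was the highest or the lowest for most of the 40 genes. Floxed LT-HSC library 3 was the highest of its group in 36 of 40 genes, and knockout LT-HSC library 3 was the lowest of its group in 33 of 40. Knockout MPP library 2 was the lowest of its group in 38 of 40, and the third library with the Myc allele was the lowest of its group in 31 of 40. In floxed MPP the highest value fell in library 1 for 4 genes, in library 2 for 15 and in library 3 for 21. The lowest value among the libraries labelled knockout fell in library 4 for 6 genes, in library 5 for 19 and in library 6 for 15. The median coefficient of variation over the genes was 16.2% in knockout MPP, 8.06% in floxed MPP, 18.7% in knockout LT-HSC and 28.8% in floxed LT-HSC, so floxed LT-HSC, the common control of the stem cell comparisons in batch 1, varied most in batch 1. In batch 2 it was 33.8% with the Myc allele, 18.0% in the libraries labelled knockout and 12.8% in Cre controls. Floxed LT-HSC library 3 also had the highest erythroid marker sum of its group, 525 rescaled TPM over 10 genes against 269 and 260.3, and the lowest sum of 10 LT-HSC markers, 449.8 against 753 and 629. Knockout LT-HSC library 3 had a neutrophil marker sum of 1183, against 346 and 477 in the other 2 of its group and 169 to 219 in floxed LT-HSC. The part of these cells in the results was not tested.

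**Figure D2:**
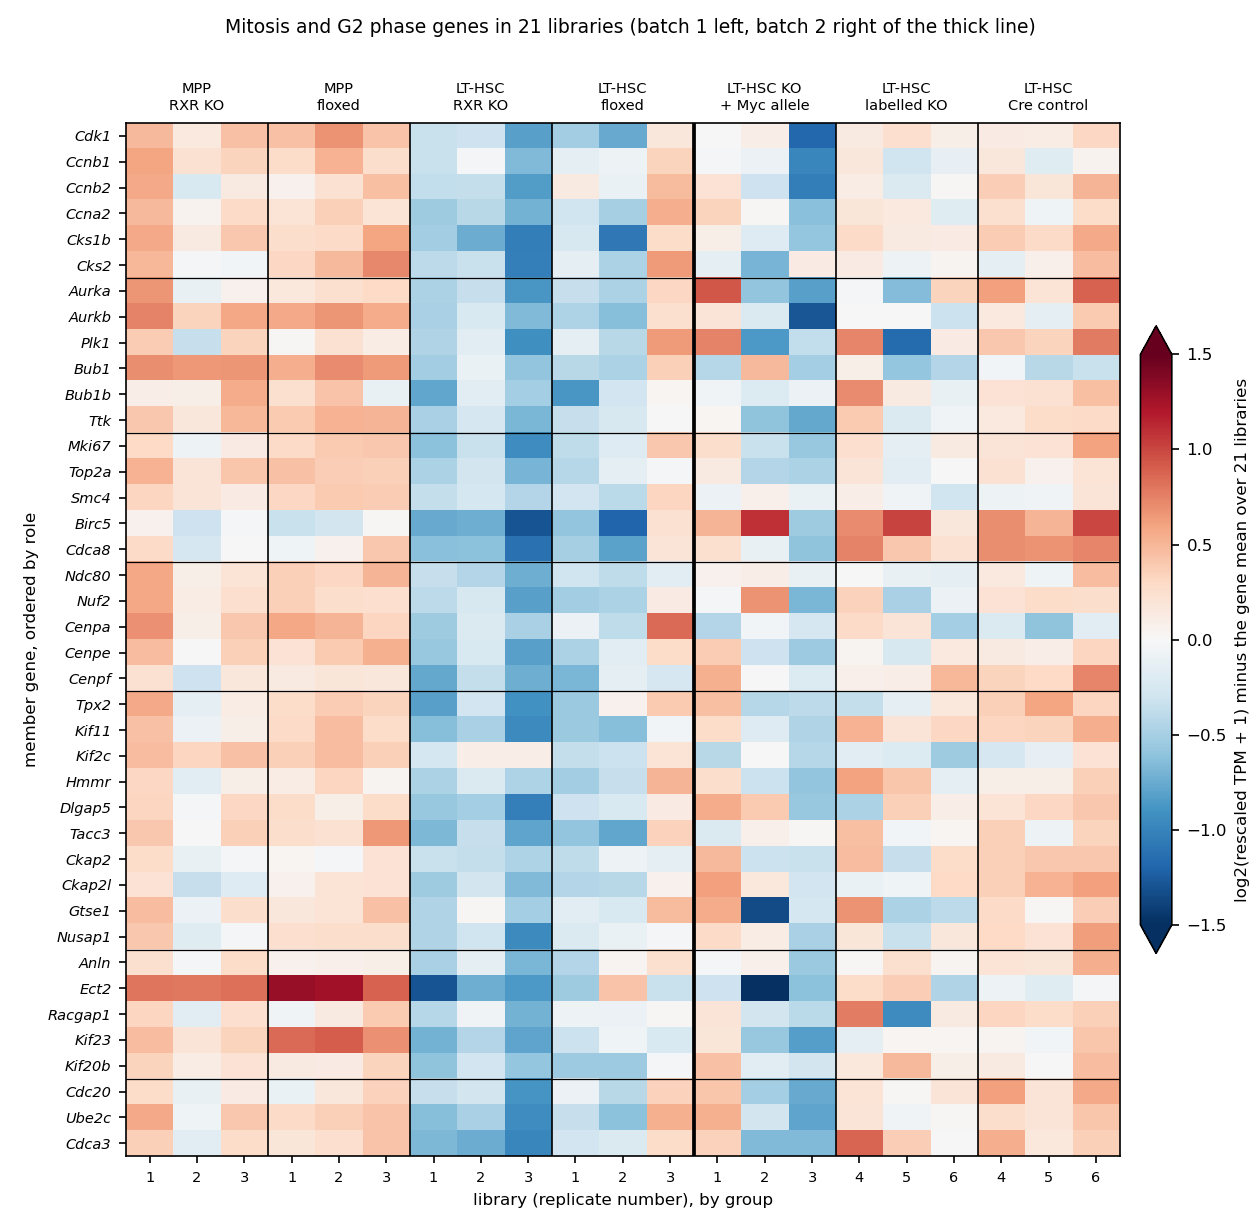
Level of each of the 40 genes in each of the 21 libraries, as log2(rescaled TPM + 1) minus the mean of that gene over all libraries; rows are ordered by role and columns by group, with batch 1 left of the thick line. MPP columns other than knockout MPP library 2 and all 3 Cre control columns are mostly red, all 3 knockout LT-HSC columns of batch 1 are mostly blue, and floxed LT-HSC library 3 is redder than the other 2 of its group.

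In control animals the module was higher in MPP than in LT-HSC. Of the 40 genes, 13 rose in floxed MPP against floxed LT-HSC and 0 fell (limma on log2(rescaled TPM + 1), adjusted p under 0.05, n = 3 libraries each), and all 40 had a higher mean in MPP. Over all 14839 genes tested, 11.9% rose in the same comparison. The median change was log2 0.49 over the 40 genes and 0.02 over all genes tested. The 13 were Cdk1, the kinases Aurkb, Bub1 and Ttk, Top2a and Smc4 of chromosome structure, the kinetochore genes Ndc80 and Nuf2, the motors Kif11 and Kif2c, and Ect2, Kif23 and Kif20b of cytokinesis. On the deposited TPM 21 of 40 rose, where 15.5% of all genes did. The count was 28 without floxed LT-HSC library 3, where 14.6% of all genes rose. The B cell marker sum, over 10 genes, was 2054 to 11180 rescaled TPM in floxed MPP and 16.2 to 219.8 in floxed LT-HSC, and the erythroid marker sum was 55.7 to 92.7 in MPP of both genotypes and 260.3 to 525 in floxed LT-HSC. The neutrophil marker sum was 619 to 2034 in floxed MPP and 169 to 219 in floxed LT-HSC, but its genes did not move together. Elane, Prtn3, Ctsg and Mpo (also an MPP marker here) were higher in every floxed MPP library than in any floxed LT-HSC library. S100a8, Camp, Ngp and Ltf were lower in every floxed MPP library, and S100a9 and Retnlg overlapped. The part of B, erythroid and neutrophil lineage cells in the result was not tested.

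In knockouts the same cell type difference covered most of the module. In knockout MPP against knockout LT-HSC 33 of the 40 genes rose and 0 fell, and all 40 had a higher mean in MPP. In 36 all 3 MPP libraries lay above all 3 LT-HSC libraries (16 in the floxed comparison). Such separation was not counted over all genes, so 36 and 16 have no share of all genes beside them. Over all genes tested 11.9% rose, and the median change was log2 0.80 over the 40 genes and 0.02 over all genes. The 7 that did not pass were Cks2, Plk1, Kif2c, Hmmr, Ckap2l, Gtse1 and Cdc20. With same-named libraries taken as pairs (a replicate block) 33 passed as well, where 14.9% of all genes rose. Of these, 31 were shared: Cks2 and Cdc20 were called, and Cenpa and Racgap1 were not. On the deposited TPM, where the median of all genes itself moved to log2 -0.20, 5 of 40 passed (Bub1, Cdca3, Dlgap5, Ect2 and Kif23) against 3.99% of all genes. The count was 12 without knockout LT-HSC library 3, 12 without knockout MPP library 1 and 20 without knockout MPP library 3. Of all genes 7.02%, 7.73% and 8.33% rose in these settings. The neutrophil marker sum was 1588 to 2678 rescaled TPM in knockout MPP and 346 to 1183 in knockout LT-HSC. Of that list Elane, Prtn3, Ctsg and Mpo were higher in every knockout MPP library, and the other genes overlapped. The monocyte marker sum was 73.0 to 122 in knockout MPP and 5.09 to 21.5 in knockout LT-HSC. The erythroid marker sum was 55.7 to 88.8 in knockout MPP and 97.7 to 192 in knockout LT-HSC, and the part of these cells was not tested. The larger count in knockouts is not a tested difference: the test of that difference, given below, called none of the 40.

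**Figure D3:**
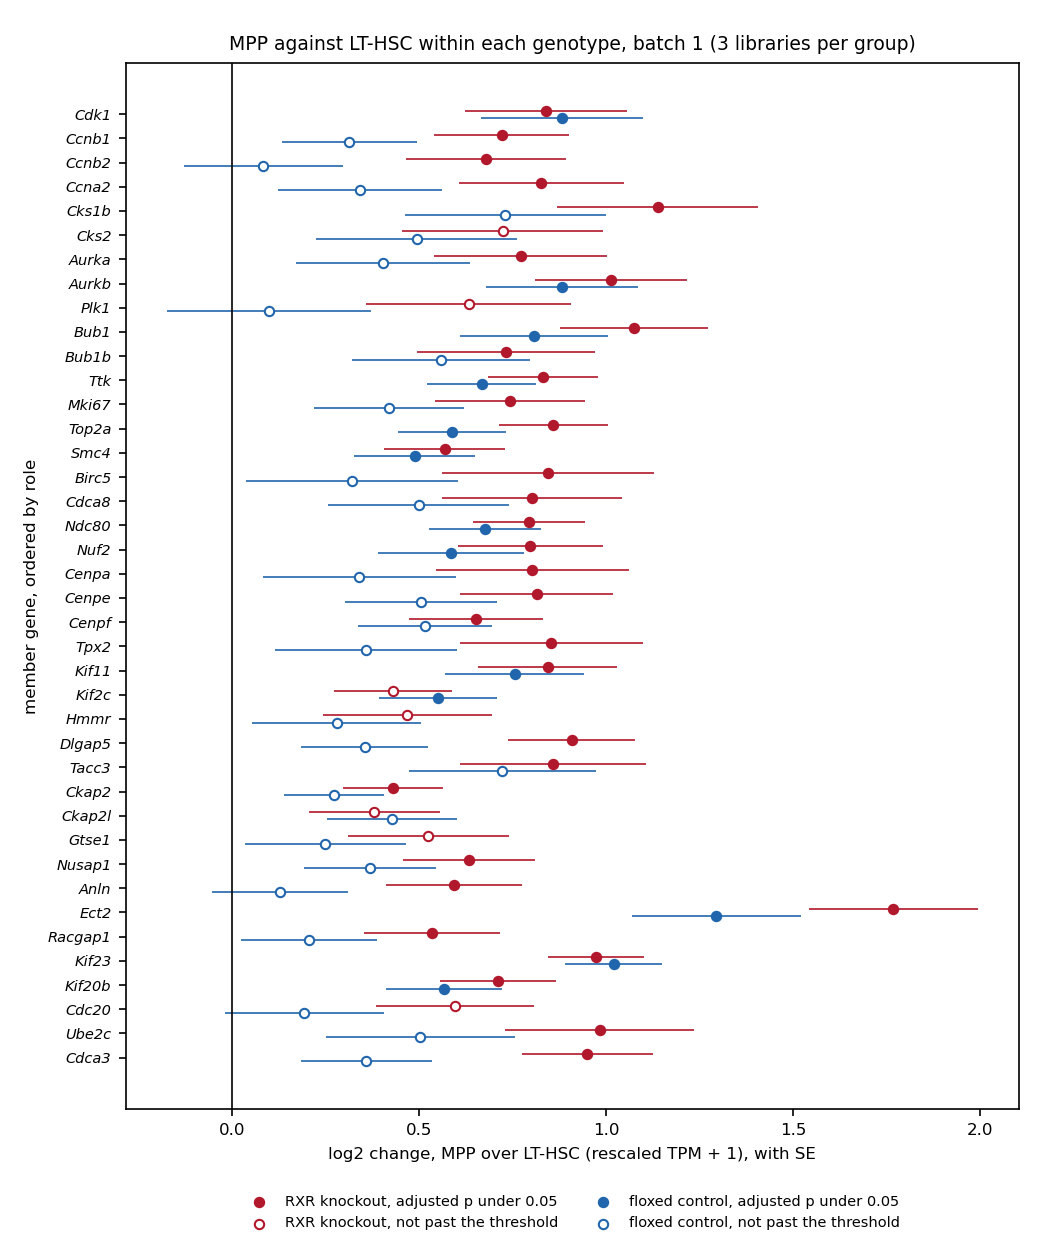
Change of each gene between MPP and LT-HSC of batch 1 on the log2(rescaled TPM + 1) scale with its SE, in knockouts (red) and floxed controls (blue), 3 libraries per group; filled points have an adjusted p under 0.05 in limma. Every point lies right of 0, and Ect2 lies farthest right in both genotypes.

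Among the cyclins, Cdk1 and their binding subunits, 5 of 6 rose in knockout MPP against knockout LT-HSC (6 with the replicate block) and 1 of 6 in the floxed comparison. Cdk1, the kinase that drives mitotic entry, was at 64.2, 50.5 and 62.1 in knockout MPP, 62.3, 73.3 and 61.5 in floxed MPP, 35.99, 36.5 and 25.6 in knockout LT-HSC and 31.4, 26.5 and 51.6 in floxed LT-HSC rescaled TPM. Every MPP library lay above every LT-HSC library of its genotype. The difference was log2 0.84 ± 0.22 (SE) in knockouts (adjusted p = 0.014, limma) and log2 0.88 ± 0.22 (SE) in floxed controls (adjusted p = 0.0105, limma). Ccnb1, cyclin B1, was at 28.2, 21.7 and 23.4 in knockout MPP, 22.5, 26.9 and 22.2 in floxed MPP, 14.4, 18.1 and 11.3 in knockout LT-HSC and 16.6, 17.4 and 23.5 in floxed LT-HSC. Its knockout groups did not overlap (log2 0.72 ± 0.18 (SE), adjusted p = 0.012, limma), while floxed LT-HSC library 3 lay within the floxed MPP range (log2 0.31 ± 0.18 (SE), adjusted p = 0.23). Ccna2, cyclin A2, was at 55.3, 40.95 and 48.04 in knockout MPP, 45.4, 50.7 and 45.6 in floxed MPP, 26.9, 29.2 and 23.6 in knockout LT-HSC and 31.7, 27.5 and 57.8 in floxed LT-HSC. Here floxed LT-HSC library 3 lay above every floxed MPP library, and the difference was log2 0.83 ± 0.22 (SE) in knockouts (adjusted p = 0.016, limma) and log2 0.34 ± 0.22 (SE) in floxed controls (adjusted p = 0.29, limma). Cks1b, a small Cdk-binding subunit, had one of the largest differences in knockouts, with 118, 87.4 and 105 rescaled TPM in MPP against 55.03, 46.98 and 38.2 in LT-HSC (log2 1.14 ± 0.27 (SE), adjusted p = 0.0086, limma). Mice also have a near-identical retrotransposed copy, Cks1brt, and how reads were split between such copies is not given in the sources used here.

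Of the 6 mitotic kinases and checkpoint genes, 5 rose in the knockout comparison of cell types and 3 in the floxed one. Aurkb, the kinase of the chromosomal passenger complex, was at 49.7, 36.9 and 44.2 in knockout MPP, 43.9, 46.9 and 43.2 in floxed MPP, 20.5, 24.8 and 18.1 in knockout LT-HSC and 20.9, 18.4 and 34.7 in floxed LT-HSC. Both MPP groups lay wholly above the LT-HSC of their genotype, by log2 1.01 ± 0.20 (SE) in knockouts (adjusted p = 0.0031, limma) and log2 0.88 ± 0.20 (SE) in floxed controls (adjusted p = 0.0071, limma). Bub1, a spindle checkpoint kinase, was at 22.6, 21.8 and 22.04 in knockout MPP, 20.2, 22.7 and 21.6 in floxed MPP, 9.16, 12.5 and 8.63 in knockout LT-HSC and 9.89, 9.50 and 17.6 in floxed LT-HSC. Its 6 MPP libraries spanned only 20.2 to 22.7, and it rose by log2 1.07 ± 0.20 (SE) in knockouts and by log2 0.81 ± 0.20 (SE) in floxed controls (adjusted p = 0.0018 and 0.0104, limma). Plk1, polo-like kinase 1, was at 14.6, 8.44 and 14.1 in knockout MPP, 11.2, 13.1 and 12.01 in floxed MPP, 7.76, 9.75 and 5.36 in knockout LT-HSC and 9.86, 8.004 and 17.6 in floxed LT-HSC. Its groups overlapped in both genotypes, and neither difference passed (log2 0.63 ± 0.27 (SE) in knockouts, log2 0.10 ± 0.27 (SE) in floxed controls, adjusted p = 0.12 and 0.83, limma).

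All 5 genes of chromosome structure and the passenger complex rose in knockout MPP against knockout LT-HSC, and 2 of 5, Top2a and Smc4, in floxed MPP against floxed LT-HSC. Top2a, which decatenates sister chromosomes, was at 163, 129 and 151 in knockout MPP, 153, 147 and 145 in floxed MPP, 80.8, 93.01 and 69.3 in knockout LT-HSC and 83.7, 102 and 111 in floxed LT-HSC. Its MPP and LT-HSC libraries did not overlap in either genotype (log2 0.86 ± 0.14 (SE) in knockouts and log2 0.59 ± 0.14 (SE) in floxed controls, adjusted p = 0.00101 and 0.011, limma). Mki67, the proliferation marker Ki-67, was at 134, 103 and 118 in knockout MPP, 133, 143 and 145 in floxed MPP, 70.7, 86 and 56.5 in knockout LT-HSC and 83.1, 94.9 and 144 in floxed LT-HSC. Floxed LT-HSC library 3 reached the floxed MPP range, and the difference passed in knockouts (log2 0.74 ± 0.20 (SE), adjusted p = 0.018, limma) but not in floxed controls (log2 0.42 ± 0.20 (SE), adjusted p = 0.15). Birc5, survivin of the passenger complex, was at 47.7, 36.5 and 44.9 in knockout MPP, 35.9, 37.4 and 46.1 in floxed MPP, 26.5, 26.97 and 17.9 in knockout LT-HSC and 29.8, 19.4 and 53.4 in floxed LT-HSC. Its knockout groups did not overlap (log2 0.84 ± 0.28 (SE), adjusted p = 0.048, limma), and its floxed groups did (log2 0.32 ± 0.28 (SE), adjusted p = 0.44).

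All 5 kinetochore and centromere genes rose in the knockout comparison of cell types (4 with the replicate block) and 2 of 5, Ndc80 and Nuf2, in the floxed one. Cenpf, a large kinetochore protein that builds up in G2 phase, was at 16.5, 11.03 and 15.8 in knockout MPP, 15.3, 15.9 and 15.7 in floxed MPP, 7.73, 10.6 and 7.98 in knockout LT-HSC and 8.28, 12.5 and 11.5 in floxed LT-HSC. No MPP library lay within the LT-HSC range of its genotype (log2 0.65 ± 0.18 (SE) in knockouts and log2 0.52 ± 0.18 (SE) in floxed controls, adjusted p = 0.019 and 0.054, limma), and the floxed difference missed the threshold. Of 10 spindle motors and microtubule binders, 6 rose in knockouts and 2 in floxed controls. Kif11, the motor that separates spindle poles, was at 41.6, 28.6 and 32.3 in knockout MPP, 37.2, 42.4 and 37.1 in floxed MPP, 19.1, 21.4 and 15.1 in knockout LT-HSC and 20.3, 19.1 and 29.6 in floxed LT-HSC. Both genotypes showed full separation of cell types, by log2 0.84 ± 0.19 (SE) in knockouts (adjusted p = 0.0056, limma) and log2 0.76 ± 0.19 (SE) in floxed controls (adjusted p = 0.0105, limma).

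Of the 5 cytokinesis genes all rose in knockout MPP (4 with the replicate block) and 3 in floxed MPP, and one of them, Ect2, had the largest difference of the module in both genotypes. Ect2 (ENSMUSG00000027699), the exchange factor that activates RhoA at the cleavage furrow, was at 15.2, 15.1 and 15.3 in knockout MPP, 21.9, 21.1 and 16.1 in floxed MPP, 2.78, 4.58 and 4.08 in knockout LT-HSC and 5.38, 11.4 and 6.36 in floxed LT-HSC. Its lowest MPP library of either genotype lay above its highest LT-HSC library of batch 1. The difference was log2 1.77 ± 0.23 (SE) in knockouts, 3.41-fold on that scale (adjusted p = 1.3e-04, limma), and log2 1.29 ± 0.23 (SE), 2.45-fold, in floxed controls (adjusted p = 0.0012, limma). Kif23 (ENSMUSG00000032254), the motor of the centralspindlin complex to which Ect2 binds, was at 23.2, 19.2 and 21.2 in knockout MPP, 30.7, 32.1 and 27.4 in floxed MPP, 9.80, 11.9 and 9.21 in knockout LT-HSC and 13.1, 15.9 and 13.99 in floxed LT-HSC. On rescaled TPM the 4 groups did not overlap at all, in the order knockout LT-HSC, floxed LT-HSC, knockout MPP, floxed MPP. On deposited TPM Kif23 in knockout LT-HSC (11.18 to 17.4) overlapped floxed LT-HSC (10.51 to 13.15). Its cell type difference was log2 0.97 ± 0.13 (SE) in knockouts and log2 1.02 ± 0.13 (SE) in floxed controls (adjusted p = 1.7e-04 and 1.1e-04, limma). Anln, anillin of the contractile ring, was at 12.1, 9.95 and 12.5 in knockout MPP, 10.7, 10.8 and 10.8 in floxed MPP, 6.97, 9.17 and 5.95 in knockout LT-HSC and 7.23, 10.5 and 12.2 in floxed LT-HSC. It passed in knockouts (log2 0.59 ± 0.18 (SE), adjusted p = 0.032, limma) and not in floxed controls (log2 0.13 ± 0.18 (SE), adjusted p = 0.65).

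Of the 3 genes of mitotic protein degradation, 2 rose in knockouts (3 with the replicate block) and 0 in floxed controls, where 0 of the 3 had an unadjusted p under 0.05. In that floxed comparison 5459 of all 14839 genes tested had such a p (limma). Cdc20, the activator of the anaphase-promoting complex, was at 23.2, 17.6 and 20.9 in knockout MPP, 17.7, 21.7 and 24.5 in floxed MPP, 14.8, 15.6 and 9.89 in knockout LT-HSC and 17.9, 14.01 and 24.5 in floxed LT-HSC. Its cell types overlapped in floxed controls and came apart in knockouts, and neither difference passed without the replicate block (log2 0.60 ± 0.21 (SE) in knockouts and log2 0.19 ± 0.21 (SE) in floxed controls, adjusted p = 0.06 and 0.54, limma). Ube2c, the E2 enzyme of that complex, was at 168, 108 and 149.5 in knockout MPP and 72.4, 80.5 and 58.9 in knockout LT-HSC (log2 0.98 ± 0.25 (SE), adjusted p = 0.014, limma).

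**Figure D4:**
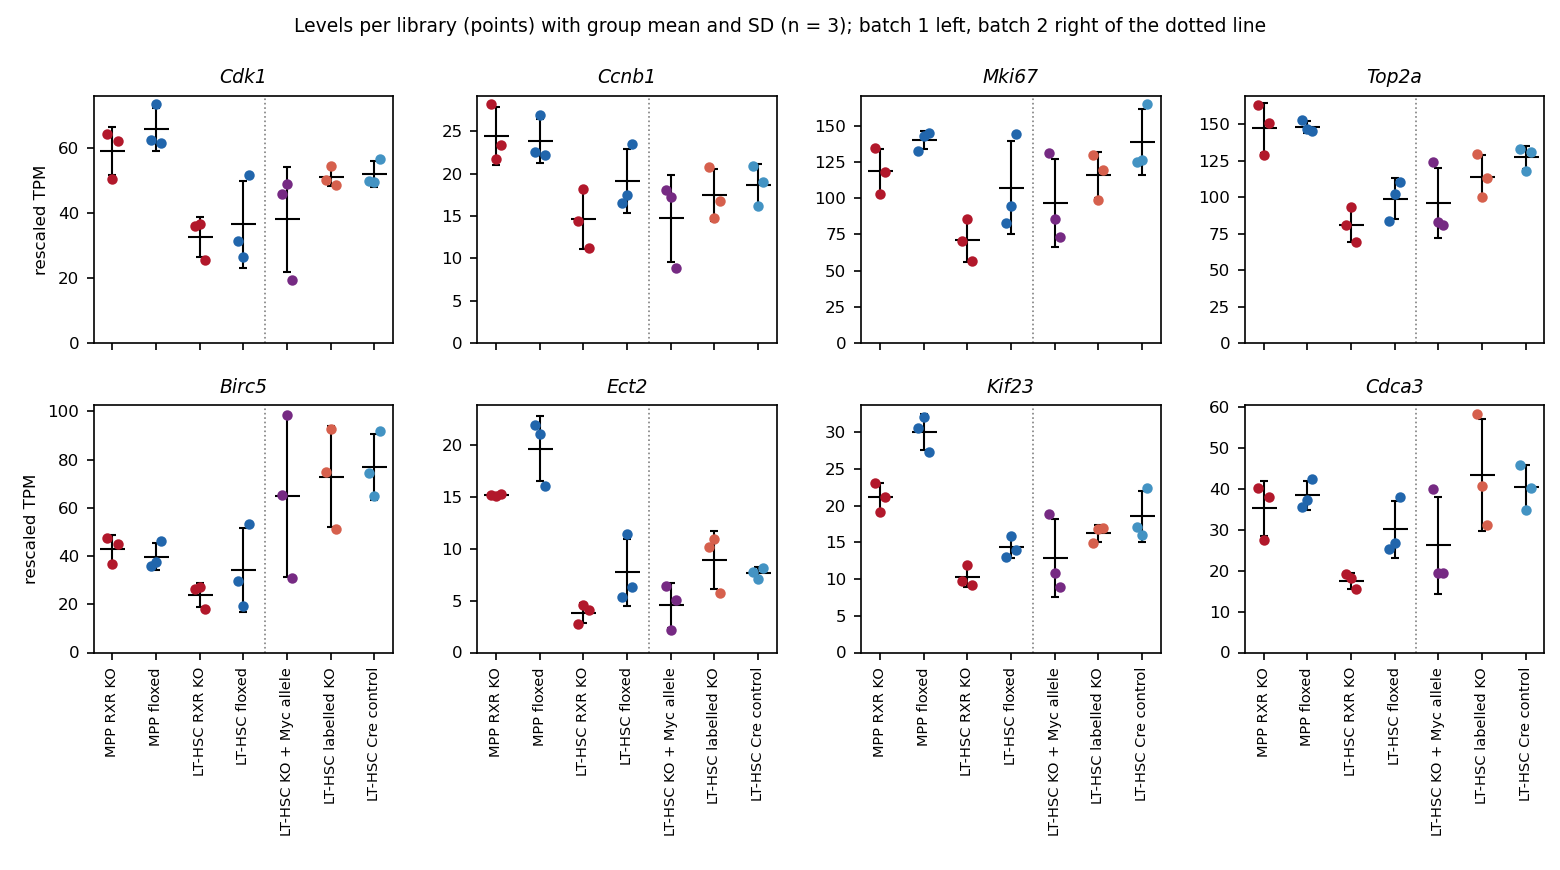
Rescaled TPM of 8 genes of the module per library (points) with the mean and SD of each group of 3, batch 1 left and batch 2 right of the dotted line. Ect2 and Kif23 have their lowest mean in batch 1 knockout LT-HSC and their highest in floxed MPP, while Birc5 is higher in most batch 2 LT-HSC libraries than in any batch 1 library.

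In RXR knockout LT-HSC of batch 1 the means of nearly the whole module were lower on the rescaled scale and mostly higher on the deposited TPM, and 1 gene passed the test in each. In knockout against floxed LT-HSC 39 of 40 means were lower, all but Kif2c, whereas on the deposited TPM 35 of 40 were higher. The median of the 40 was log2 -0.38 on rescaled TPM, where that of all genes was -0.01, and 0.19 on deposited TPM, where that of all genes was 0.52, so on both scales the module lay below the median of all genes. On rescaled TPM 1 of 40 fell and 0 rose, and 2.61% of all 14839 genes tested fell. An unadjusted p under 0.05 (limma) was found for 9 of the 40, and for 4067 of all 14839 genes. On deposited TPM 1 of 40, the microtubule depolymerase Kif2c, rose, where 44.6% of all genes tested rose.

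The gene that fell was Cdca3 (ENSMUSG00000023505), known as a trigger of mitotic entry through destruction of the kinase Wee1. Cdca3 was at 19.2, 18.3 and 15.4 rescaled TPM in knockout LT-HSC, against 25.4, 26.9 and 38.2 in floxed LT-HSC. The groups did not overlap (log2 -0.72 ± 0.18 (SE), adjusted p = 0.039, limma). The call was lost without floxed LT-HSC library 2 or 3 and without knockout LT-HSC library 2 or 3. It was also lost with no filter and with only the groups compared. The adjusted p of Cdca3 (limma) ran from 0.032 to 0.65 over the alternatives, the highest on deposited TPM, where the log2 change was -0.12. A count of 1 in 40 is near the 2.61% of all genes that fell. Ect2, at 2.78, 4.58 and 4.08 in knockouts and 5.38, 11.4 and 6.36 in floxed controls, did not overlap either (log2 -0.82 ± 0.23 (SE), adjusted p = 0.056, limma). Kif23, at 9.80, 11.9 and 9.21 in knockouts and 13.1, 15.9 and 13.99 in floxed controls, was lower in all 3 knockout libraries (log2 -0.44 ± 0.13 (SE), adjusted p = 0.064), but on deposited TPM its log2 change was 0.14. The spindle protein Dlgap5 was at 5.39, 5.62 and 3.63 in knockouts, against 6.60, 7.06 and 9.29 in floxed controls, again without overlap (log2 -0.56 ± 0.17 (SE), adjusted p = 0.0696). Cyclin B2, Ccnb2, was at 23.9, 24.1 and 17.1 in knockouts, against 34.3, 29.2 and 43.6 in floxed controls (log2 -0.69 ± 0.21 (SE), adjusted p = 0.073). With the spindle protein Nusap1, these made 6 genes whose knockout libraries all lay below every floxed library in rescaled TPM. How many of all genes were separated in this way was not counted, so the 6 have no share of all genes beside them.

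The genes that stand for the other roles overlapped between the genotypes in LT-HSC of batch 1. Cdk1 differed by log2 -0.12 ± 0.22 (SE) (adjusted p = 0.76, limma), Mki67 by -0.57 ± 0.20 (adjusted p = 0.101) and Top2a by -0.29 ± 0.14 (adjusted p = 0.22). For Aurkb the difference was -0.17 ± 0.20, for Plk1 -0.54 ± 0.27 and for Birc5 -0.41 ± 0.28 (adjusted p = 0.61, 0.22 and 0.36). Without floxed LT-HSC library 3 the median of the 40 was log2 -0.17 and 9 of 40 means were higher in knockouts, and without knockout LT-HSC library 3 the median was -0.23. The erythroid marker sum was 97.7 to 192 rescaled TPM in knockout LT-HSC and 260.3 to 525 in floxed LT-HSC, with 7 of 10 markers fallen and none at 0 in all libraries of either group. The neutrophil marker sum was 346 to 1183 in knockouts and 169 to 219 in floxed controls, with 0 of 10 markers called. The B cell marker sum was 251 to 783 in knockouts and 16.2 to 219.8 in floxed controls, the MPP marker sum was 51.3 to 90.6 in knockouts and 35.3 to 44.9 in floxed controls, and the monocyte marker sum was 5.09 to 21.5 in knockouts and 2.35 to 4.31 in floxed controls. Their part in the lower means was not tested.

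**Figure D5:**
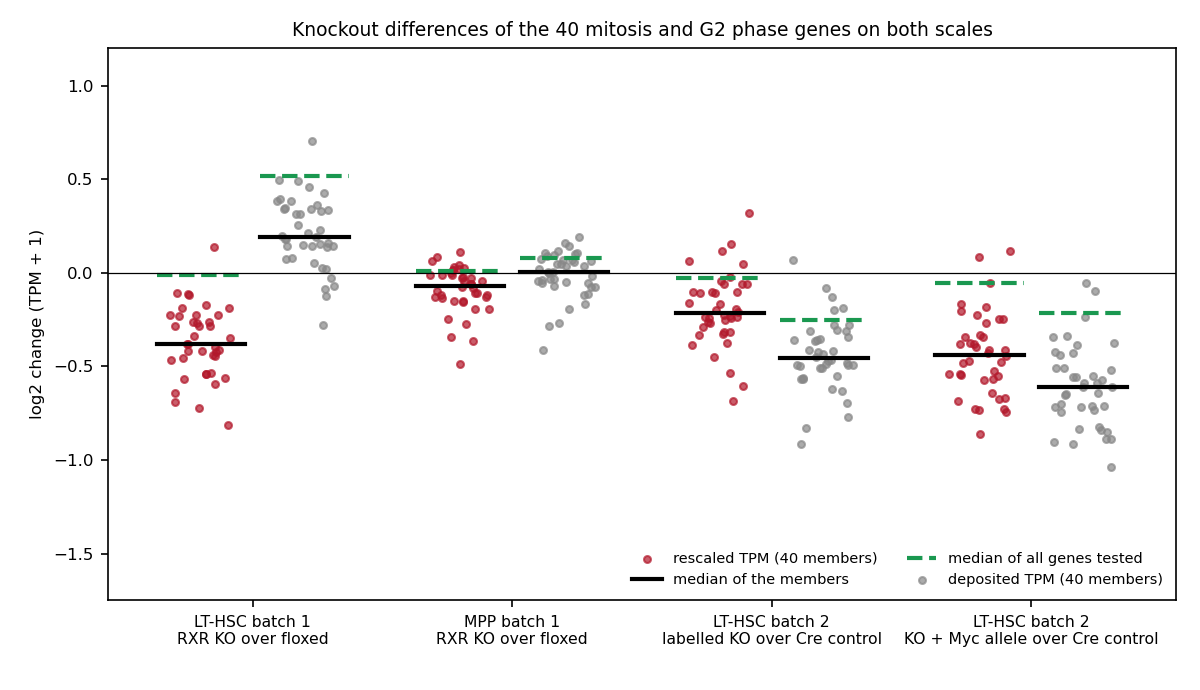
Difference of each of the 40 genes (points) in 4 comparisons of LT-HSC or MPP, on rescaled TPM (red) and deposited TPM (grey), with the median of the 40 genes (black) and of all genes tested (dashed green). In LT-HSC of batch 1 the points lie mostly below 0 on rescaled TPM and mostly above 0 on deposited TPM, and on both scales below the median of all genes (-0.38 against -0.01, and 0.19 against 0.52).

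In MPP no gene of the module differed with the knockout beyond the threshold. In knockout against floxed MPP 0 of 40 genes were called, where 0.586% of all genes were called in either direction. Of the 40, 1 had an unadjusted p under 0.05 (limma), as did 1413 of all 14839 genes tested. The median of the 40 was log2 -0.07 and that of all genes was 0.01, with 31 means lower in knockouts, and 19 lower on deposited TPM. Without knockout MPP library 2 the median was 0.05, with 28 of 40 changes positive, and without knockout MPP library 1 it was -0.20, with 4 positive. It was -0.12 without floxed MPP library 1 and -0.03 without floxed MPP library 3. The lowest p was that of Kif23, at 23.2, 19.2 and 21.2 in knockout MPP and 30.7, 32.1 and 27.4 in floxed MPP (log2 -0.49 ± 0.13 (SE), adjusted p = 0.13, limma). Kif23 and Ect2 were the only 2 genes of the module whose knockout and floxed MPP libraries did not overlap, both lower in knockouts. The same separation was not counted over all genes. Ckap2l, a mitotic spindle protein, had the next lowest p (log2 -0.27 ± 0.17 (SE), adjusted p = 0.76). Cdk1 differed by log2 -0.16 ± 0.22 (SE), Mki67 by -0.25 ± 0.20 and Top2a by -0.01 ± 0.14, and the groups overlapped for each. The B cell marker sum was 641 to 6037 rescaled TPM in knockout MPP and 2054 to 11180 in floxed MPP, and its part was not tested.

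In LT-HSC of batch 2 none of the 40 genes was called between the libraries labelled knockout and Cre controls, and 0 had an unadjusted p under 0.05 (limma), where 0.0595% of the 13445 genes tested were called. Of those 13445 genes, 521 had an unadjusted p under 0.05. On rescaled TPM 35 of 40 means were lower (39 on deposited TPM), with a median of log2 -0.22 against -0.03 over all genes. The median was -0.12 without Cre control library 6 (11 of 40 changes positive) and -0.12 without library 5 of those labelled knockout (9 positive). Tpx2, which activates Aurora A on the spindle, was at 9.83, 11.7 and 14.5 in the libraries labelled knockout and 16.8, 19.96 and 16.3 in Cre controls, without overlap (log2 -0.54 ± 0.27 (SE), adjusted p = 0.94). Ckap2l was at 17.6, 18.1 and 23.6 in the libraries labelled knockout, against 24.5, 27.7 and 29.4 in Cre controls, again without overlap (log2 -0.45 ± 0.24 (SE), adjusted p = 0.94). Aurka, Aurora kinase A, was at 10.7, 6.65 and 14.1 in the libraries labelled knockout and 17.3, 12.8 and 21.2 in Cre controls, with overlap (log2 -0.68 ± 0.44 (SE), adjusted p = 0.94). Ccnb2 and Nusap1 were also lower in all 3 libraries labelled knockout than in any Cre control, as they were in batch 1 against floxed controls. How many of all genes were lower in this way was not counted, in this batch or in both. Cdca3 overlapped, at 58.4, 40.6 and 31.3 in the libraries labelled knockout and 45.9, 34.9 and 40.4 in Cre controls (log2 0.07 ± 0.30 (SE)).

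Knockouts with the Myc allele had the lowest means of batch 2 for most of the module, with no call. Against the libraries labelled knockout 0 of 40 genes were called (3 with an unadjusted p under 0.05), where 0% of all genes were, and the median was log2 -0.26, against -0.02 over all genes. Against Cre controls 0 of 40 were called (9 with an unadjusted p under 0.05), where 0.0818% of all genes were, and the median was log2 -0.44, against -0.05. Both comparisons share the Myc allele libraries. Of all 13445 genes tested, 733 had an unadjusted p under 0.05 against the libraries labelled knockout and 1278 against Cre controls (limma). Without Myc allele library 3 the median was -0.03 against the libraries labelled knockout (18 of 40 changes positive) and -0.28 against Cre controls (6 positive). Against the libraries labelled knockout it was -0.45 without Myc allele library 1 and -0.16 without library 4 of those labelled knockout. Cdca8, borealin of the passenger complex, was at 47.7, 37.2 and 26.2 with the Myc allele, 68.3, 53.6 and 47.5 in the libraries labelled knockout and 65.7, 64.8 and 67.8 in Cre controls. All 3 Myc allele libraries lay below every Cre control (log2 -0.86 ± 0.22 (SE), adjusted p = 0.497, limma). Cks1b, at 84.6, 69.05 and 52.6 with the Myc allele, lay below both other groups, at 97, 87.3 and 86.9 in the libraries labelled knockout and 104, 96.9 and 118 in Cre controls (log2 -0.64 ± 0.19 (SE) against Cre controls, adjusted p = 0.52). Cdc20 was at 25.8, 13.2 and 10.9 with the Myc allele and 29.8, 22.1 and 28.8 in Cre controls, with overlap (log2 -0.74 ± 0.29 (SE), adjusted p = 0.52). Against the libraries labelled knockout, Ect2 (log2 -0.89 ± 0.35 (SE)) and Cdca3 (log2 -0.74 ± 0.30 (SE)) had the lowest p after Cdca8 (log2 -0.62 ± 0.22 (SE)), each with an adjusted p of 0.87.

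The libraries with the Myc allele differed among themselves. Library 1 was the highest of its group in 29 of 40 genes and library 3 the lowest in 31, and without library 1 the comparison with Cre controls called 9 genes lower (Ccnb2, Cdc20, Cdca3, Cdca8, Cks1b, Kif11, Mki67, Top2a and Ube2c), where 2.84% of the 13298 genes tested fell. Cdk1 ranged over 19.5 to 48.9 with the Myc allele, 48.6 to 54.3 in the libraries labelled knockout and 49.4 to 56.6 in Cre controls. All 3 Myc allele libraries were below every Cre control for Cdk1. Ccnb1 ranged over 8.81 to 18.1 with the Myc allele, 14.7 to 20.8 in the libraries labelled knockout and 16.1 to 20.9 in Cre controls. Ccna2 was at 25.03 to 49.8 with the Myc allele, 34.6 to 44.6 in the libraries labelled knockout and 37.6 to 47.9 in Cre controls. These cyclin levels overlapped between all 3 groups. Mki67 ranged over 73.3 to 131 with the Myc allele, 98.8 to 130.0 in the libraries labelled knockout and 125 to 165 in Cre controls. The range of Top2a was 81.3 to 124 with the Myc allele, 100.1 to 129 in the libraries labelled knockout and 118 to 133 in Cre controls. For Aurkb it was 11.3 to 33.5 with the Myc allele, 23.1 to 29.4 in the libraries labelled knockout and 26.4 to 38.5 in Cre controls. In each of these genes the Myc allele group overlapped both other groups. Plk1 ranged over 5.59 to 19.1 with the Myc allele, 4.38 to 18.9 in the libraries labelled knockout and 14.1 to 19.6 in Cre controls. Birc5 lay at 31 to 98.4 with the Myc allele, 51.01 to 92.7 in the libraries labelled knockout and 64.98 to 91.9 in Cre controls. Cenpf was at 11.9 to 20.5 with the Myc allele, 14.7 to 20.1 in the libraries labelled knockout and 17.3 to 23.7 in Cre controls. Here too all 3 groups overlapped. Cdc20 ranged over 10.9 to 25.8 with the Myc allele, 19.4 to 22.2 in the libraries labelled knockout and 22.1 to 29.8 in Cre controls. Kif11 lay at 21.9 to 37.1 with the Myc allele, 34.95 to 43.9 in the libraries labelled knockout and 38.3 to 44.8 in Cre controls. Anln was at 6.58 to 10.8 with the Myc allele, 10.3 to 12.1 in the libraries labelled knockout and 11.7 to 15.2 in Cre controls. For Kif11 and Anln the Myc allele libraries lay wholly below the Cre controls.

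Put together with batch as a term, LT-HSC of both batches again gave lower means without a call. In all libraries labelled knockout against all control LT-HSC (6 libraries each, no Myc allele) 0 of 40 genes were called (10 with an unadjusted p under 0.05, limma), where 0% of the 14492 genes tested were called. Of those 14492 genes, 2931 had an unadjusted p under 0.05. All 40 changes were negative on rescaled TPM, with a median of log2 -0.29 against -0.03 over all genes, and 10 of 40 were positive on deposited TPM, with a median of -0.12 against 0.14 over all genes. Ccnb2 had the lowest p (log2 -0.54 ± 0.13 (SE), adjusted p = 0.094), with log2 -0.69 ± 0.21 (SE) within batch 1 and log2 -0.38 ± 0.28 (SE) within batch 2. Tpx2 followed (log2 -0.59 ± 0.17 (SE), adjusted p = 0.11), with -0.64 ± 0.24 within batch 1 and -0.54 ± 0.27 within batch 2, and then Nusap1 (-0.41 ± 0.14, adjusted p = 0.13). Ccnb2, 1 of 40, was called without library 6 of those labelled knockout, where 4.89% of the 14423 genes tested were called in either direction.

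Differences of the knockout effect itself were tested as interaction terms, and none of the 40 genes passed in either. For the effect in LT-HSC minus that in MPP, 0 were called, where 0.027% of all genes were called. An unadjusted p under 0.05 (limma) was found for 2 of the 40 and for 1909 of all 14839 genes. This interaction is also the test of whether the cell type difference changes with genotype. Cdca3 had the lowest p (log2 -0.59 ± 0.25 (SE), adjusted p = 0.36), followed by Dlgap5 (-0.55 ± 0.24) and Ccnb2 (-0.59 ± 0.30), and for Kif23 the term was 0.05 ± 0.18. For the effect in batch 1 minus that in batch 2, 0 were called and 2 had an unadjusted p under 0.05, where 0.138% of all genes were called. Of all 14492 genes tested, 1447 had an unadjusted p under 0.05. Again Cdca3 was lowest (log2 -0.79 ± 0.31 (SE), adjusted p = 0.42), followed by Ect2 (-0.97 ± 0.39) and Cenpa (-0.86 ± 0.40). On deposited TPM 35 of 40 terms of the first test and 39 of 40 of the second were positive, so the sign of these terms depends on the scaling. The median of the first test was log2 -0.27 on rescaled TPM, against -0.01 over all genes, and 0.23 on deposited TPM, against 0.45 over all genes. For the second it was -0.17 against -0.01 on rescaled TPM, and 0.67 against 0.73 on deposited TPM. Without floxed LT-HSC library 3 the medians on rescaled TPM were -0.09 and 0.02.

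Genes that act beside the module also differed between cell types. Over all genes tested 11.9% rose and 12.1% fell in floxed MPP against floxed LT-HSC, and 11.9% rose and 11.6% fell in knockout MPP against knockout LT-HSC. Of 64 other mitotic genes tested, 24 rose and 2 fell in floxed MPP against floxed LT-HSC, and 37 rose and 1 fell in the knockout comparison. The cohesin factor Cdca5 (log2 0.96, adjusted p = 0.0104) and Shcbp1 (log2 0.99, adjusted p = 0.0048), a midbody protein, were among those that rose in floxed MPP, while the centromere gene Cenpt (log2 -0.91, adjusted p = 1.2e-04) and the securin gene Pttg1 (log2 -0.57, adjusted p = 0.029) fell. Of 46 S phase genes, 16 rose and 1 fell in the floxed comparison, and 40 rose and 0 fell in knockouts. The helicase gene Hells (log2 1.13, adjusted p = 0.0011) and the replisome gene Gins2 (log2 1.06, adjusted p = 0.025) rose in floxed MPP, and cyclin E1, Ccne1 (log2 -1.14, adjusted p = 0.035), fell. Among 23 genes of transcription control, 8 rose and 4 fell in floxed MPP and 7 rose and 0 fell in knockout MPP. The mitotic activator Foxm1 (log2 0.90, adjusted p = 0.0026) and E2f1 (log2 0.89, adjusted p = 0.0086) rose, and 2 parts of the DREAM complex, E2f4 (log2 -0.80, adjusted p = 0.0029) and Rbl2 (log2 -0.59, adjusted p = 0.0089), fell in floxed MPP; B-Myb, Mybl2 (log2 1.05, adjusted p = 0.00604), rose in knockout MPP. Of 17 genes of the anaphase-promoting complex 0 were called in floxed MPP. An unadjusted p under 0.05 was found there for 2 of the 17 and for 5459 of all 14839 genes. In knockout MPP 2 of the 17 rose, Fbxo5 (log2 0.77, adjusted p = 0.015), which is the complex's inhibitor Emi1, and Cdc27 (log2 0.33, adjusted p = 0.043). Of 16 genes of Cdk1 entry control and Cdk inhibitors, 3 rose and 2 fell in floxed MPP and 7 rose and 2 fell in knockout MPP. The Cdk inhibitor p57, Cdkn1c (log2 -2.13, adjusted p = 1.9e-05), and Gadd45g (log2 -1.004, adjusted p = 0.0016) fell, and the Cdk1-inhibiting kinase Pkmyt1 (log2 0.84, adjusted p = 0.011) rose. On deposited TPM the counts in knockout MPP were smaller, with 7 of 64 other mitotic genes and 15 of 46 S phase genes risen, where 3.99% of all genes rose, and none of the transcription control genes fell in floxed MPP, where 5.62% of all genes fell.

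Few of these genes moved with the knockout on rescaled TPM. Over all genes tested 2.37% rose and 2.61% fell in knockout against floxed LT-HSC of batch 1. In LT-HSC of batch 1 the S phase list had 0 risen and 3 fallen of 46, the ribonucleotide reductase genes Rrm2 (log2 -0.96, adjusted p = 0.042) and Rrm1 (log2 -0.78, adjusted p = 0.043) and the histone chaperone gene Chaf1a (log2 -0.63, adjusted p = 0.035). The other mitotic genes had 0 risen and 2 fallen of 64, the kinetochore genes Zwint (log2 -0.88, adjusted p = 0.022) and Cenpn (log2 -0.54, adjusted p = 0.041). Transcription control had 2 fallen of 23, E2f4 (log2 -0.78, adjusted p = 0.025) and the NF-Y subunit Nfya (log2 -0.59, adjusted p = 0.0499), and the anaphase-promoting complex 2 fallen of 17, Ube2s (log2 -0.81, adjusted p = 0.021) and Anapc7 (log2 -0.52, adjusted p = 0.034). Among entry control and inhibitors Gadd45g (log2 0.92, adjusted p = 0.024), a stress-response gene, rose, and the phosphatase subunit Ppp2r2d (log2 -0.58, adjusted p = 0.0397) fell. Ppp2r2d was also the single gene of all 5 lists called in knockout against floxed MPP, where it fell (log2 -0.75, adjusted p = 0.036). On deposited TPM none of the 5 lists had a gene that fell in knockout LT-HSC of batch 1, and 3 to 11 genes of each rose, where 44.6% of all genes did. None of the 5 lists had a called gene between the libraries labelled knockout and Cre controls (0 or 1 per list with an unadjusted p under 0.05), in all LT-HSC together (2 to 15 per list) or in the interaction terms (3 to 12 and 2 to 6 per list). In the same order, 521 of 13445, 2931 of 14492, 1909 of 14839 and 1447 of 14492 of all genes had such a p.

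Splicing of the module was read from deposited fractions of spliced-in reads (PSI, 0 to 1) at 141 events in 26 of the 40 genes, of which 73 are of the intron retention type. The table holds events that were already selected on their PSI differences, so the shares below are shares of that selection. In floxed MPP against floxed LT-HSC 2 of 129 events tested passed (limma on PSI, with a PSI difference of 0.1 or more and an adjusted p under 0.05), where 0.486% of all events did. Both lie in Cdk1 and are of the intron retention type. Their coordinates span a junction, so a PSI of 1 is read here as all reads spliced, and a lower PSI as more intron kept. A short event at chr10:69342729-69342730, within that at chr10:69342710-69345061, was at 0.087, 0.134 and 0.110 in floxed MPP. It was at 0 in batch 1 LT-HSC (adjusted p = 0.070, limma). LT-HSC, with less Cdk1 RNA, stood at the upper limit of PSI, and read depth is not given. The event at chr10:69346231-69350096 (mm10) had a PSI of 0.952, 0.863 and 0.890 in knockout MPP, 0.781, 0.820 and 0.772 in floxed MPP, 1, 1 and 1 in knockout LT-HSC and 1, 1 and 1 in floxed LT-HSC. All 6 MPP libraries were below all LT-HSC libraries of batch 1, and the floxed difference of means was -0.209 (adjusted p = 0.012). The event at chr10:69342710-69345061 had 0.907, 0.989 and 0.989 in knockout MPP, 0.854, 0.779 and 0.836 in floxed MPP, and 1 in all 6 LT-HSC libraries of batch 1. The floxed difference was -0.177 (adjusted p = 0.038), and all 3 knockout MPP libraries lay between floxed MPP and LT-HSC. Among LT-HSC of batch 2, the second Myc allele library was also low at this event, at 0.737. In batch 1 LT-HSC 0 of 129 events passed between knockouts and floxed controls (9 with an unadjusted p under 0.05), where 0.166% of all events did. Between the libraries labelled knockout and Cre controls of batch 2, 0 of 103 passed (3 with an unadjusted p under 0.05), where 0.0389% did. Events with an unadjusted p under 0.05 were not counted over all events. The 2 Cdk1 calls became 1 without any single library of the floxed comparison other than floxed MPP library 3. In LT-HSC 1 event passed without knockout library 1 of batch 1, where 1.03% of all events tested did. In batch 2 there were 2 without library 5 of those labelled knockout, where 0.103% of all events passed, and 1 without library 6, where 0.416% did.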

How the data were processed

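Per the submitters' processing notes the authors used kallisto and STAR 2.6 with the mouse build mm10. They deposited 1 table of TPM per gene and library, and 1 table of splice events as PSI, the fraction of spliced-in reads, already selected on PSI differences. Not given in the sources used here: the kallisto version, the transcript set, the event caller and the depth each library reached, so no counting error could be stated.

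Each library's TPM were divided by a median-of-ratios size factor, taken from the 14964 genes with values above 0 throughout. limma 3.58.1 (R 4.3.3) with an intensity trend was fitted to log2(rescaled TPM + 1) of genes with at least 1 deposited TPM in at least 3 libraries of the fit, separately for batch 1 (12 libraries), batch 2 (9) and, with a batch term, LT-HSC of both batches (12). Folds on this scale understate changes of low genes. Benjamini-Hochberg adjusted p-values cover all genes tested, two-sided. PSI were tested with limma at events with a value in every library of the fit. The scripts were tested on simulated data. Figures were drawn with matplotlib 3.10.9.

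Named are 12 genes that stand for the roles, the 5 called genes with the largest change per direction in a comparison, or the 3 with the lowest p where fewer than 5 were called, and up to 3 called genes per related list and direction. The 40 genes, the related lists and the tests were chosen with earlier results of these data known. Kif2c and the further genes listed by overlap or in leave-one-out counts were named after their values were seen. Descriptions give MPP and LT-HSC libraries of a genotype the same short names, without saying what a name stands for. In knockouts same-named MPP and LT-HSC libraries deviated together (correlations 0.165 to 0.555), so they count as paired. The SE and adjusted p-values printed for single genes and interaction terms come from the fit without this pairing. The replicate block, which holds it, is given by its counts. With the block the effect in LT-HSC minus that in MPP also called 0 of 40 (lowest adjusted p = 0.21, limma). In floxed controls the correlations were 0.0509 to 0.0835. Alternatives were the deposited TPM, size factors from the libraries of the fit, a pseudocount of 0.1, no filter, only the groups compared, a replicate block and leaving out each library.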

Additional observations from a re-analysis of the deposited data

How the results depend on the processing

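The cell type difference kept its direction for every called gene under every alternative run, while its count moved. On deposited TPM 21 genes rose in floxed MPP and 5 in knockout MPP, where 15.5% and 3.99% of all genes rose. Leaving out 1 library gave 9 to 28 and 12 to 31, while 1094 to 2158 and 1023 to 1761 of all genes tested rose. In floxed MPP 9 genes, and in knockout MPP 5, were called under every setting. Calls under every setting were not counted over all genes. For knockout against floxed LT-HSC of batch 1 the count was 1 on deposited TPM (Kif2c, higher), 0 with no filter, 0 with only the groups compared, and 0 to 3 with 1 library left out. Of all genes 44.6% rose on deposited TPM. With no filter 146 of 23689 fell, with only the groups compared 14 of 13999, and with 1 library left out 17 to 766. With the replicate block the count in these LT-HSC was 2 (Cdca3 and Ect2, both lower), where 494 of all 14839 genes fell. Floxed MPP gave 15 and knockout MPP 33 (31 of them shared with the fit without the block), where 2111 and 2214 of all genes rose. The block changed no other count. Outside the knockout cell types, same-numbered libraries did not correlate above 0.1 in every pair, so there the numbers were not taken as pairs. Against Cre controls the Myc allele gave 0 to 9 with 1 library left out, and all LT-HSC gave 0 to 1. Of all genes 3 to 377 and 0 to 217 fell in these settings. Splice events gave 4 in floxed MPP when values in 2 libraries of each group were enough (in Cdk1, Cenpa and Ect2), where 259 of all 43908 events passed. With 1 library left out they gave 1 to 2 in floxed MPP, 0 to 1 in batch 1 knockouts and 0 to 2 in batch 2. Of all events 121 to 356, 31 to 410 and 15 to 118 passed there. The causes of these shifts were not tested. TPM hold no depth, so low genes such as Gtse1 carry a counting error that could not be given, and groups of 3 libraries limit what the tests can call.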
